A study of Homo sapiens with 2 samples.

Results

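The JUN family, JUN, JUNB and JUND, was described through the JUNB CUT&RUN peaks that surround its 3 genes in IMR-90, an established line of human lung fibroblasts. Members were all listed peaks whose summit lay within 200 kb of the span of one of these genes in the RefSeq annotation of GRCh38, and no measured level entered the choice. The rule gave 24 of the 33491 peaks of untreated cells and 14 of the 26590 peaks of cells treated with etoposide (ETO), a topoisomerase II poison that breaks DNA and drives fibroblasts into senescence, or 38 of 60081 peaks in all. Both libraries were made with the same JUNB antibody from the same line, and neither a dose nor a length of treatment was stated in the labels. Each condition had 1 library, so nothing below could be set against a spread between cultures and no test of the treatment was made. Peaks show where the signal of the JUNB antibody was called above local background, and not how much of a gene's RNA was made. The identity of the cells could therefore not be checked against expressed markers.

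AP-1 is a dimer of basic leucine zipper proteins, in which a JUN protein pairs with another JUN protein or with a FOS, ATF or MAF relative. The dimer binds the heptamer TGACTCA, which reads TGAGTCA on the opposite strand, or the octamer TGACGTCA. JUN is the classic activator of the family and is activated by JNK kinases, JUNB is an early-response gene whose product often opposes JUN in cell growth, and JUND is expressed broadly and binds the tumour suppressor menin. AP-1 genes are known to be under control of AP-1 itself, JUN above all, and AP-1 is known to occupy many enhancers of senescent fibroblasts.

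The sequence just before each gene's transcription start is shown first, because the question at these loci is whether JUNB was found at the promoters of its own family. The 250 bases that end at the RefSeq start are written 5′ to 3′ on the coding strand (GRCh38.p14), and capitals mark AP-1-type motifs. They lie at chr1:58784048-58784297, minus strand, for JUN, at chr19:12791236-12791485, plus strand, for JUNB, and at chr19:18281623-18281872, minus strand, for JUND.
JUN: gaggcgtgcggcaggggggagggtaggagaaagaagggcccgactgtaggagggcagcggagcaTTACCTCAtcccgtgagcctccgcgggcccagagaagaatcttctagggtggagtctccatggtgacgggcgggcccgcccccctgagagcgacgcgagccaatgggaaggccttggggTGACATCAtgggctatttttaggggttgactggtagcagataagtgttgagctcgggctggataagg
JUNB: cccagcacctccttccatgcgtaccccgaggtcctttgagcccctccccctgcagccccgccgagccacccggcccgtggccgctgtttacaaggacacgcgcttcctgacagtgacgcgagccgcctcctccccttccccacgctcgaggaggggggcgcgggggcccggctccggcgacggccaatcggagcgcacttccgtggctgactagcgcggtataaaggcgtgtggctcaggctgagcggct
JUND: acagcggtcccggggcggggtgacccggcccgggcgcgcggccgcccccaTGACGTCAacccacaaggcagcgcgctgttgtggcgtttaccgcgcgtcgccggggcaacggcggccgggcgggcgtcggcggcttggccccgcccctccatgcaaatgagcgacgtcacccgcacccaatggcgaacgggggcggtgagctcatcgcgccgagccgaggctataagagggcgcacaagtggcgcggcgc
The JUN promoter held the octamer variants TTACCTCA, 186 to 179 bases before the start, and TGACATCA, 67 to 60 bases before it, which are known as the distal and proximal AP-1-type sites of this gene. The JUND promoter held the octamer TGACGTCA, 200 to 193 bases before the start, and the JUNB stretch held none of the motifs searched. TGACTCA on either strand was in none of the 3 promoters. Over 22132 promoter windows of protein-coding genes, 3.45% held TGACTCA on either strand, 2.02% TGACGTCA, 1.94% TGACATCA or its complement TGATGTCA, and 0.574% TTACCTCA or its complement TGAGGTAA. The variants TGACATCA and TTACCTCA were added after the sequences had been seen. A match describes letters and does not show binding.

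No listed peak of either library overlapped the promoter window of JUN, JUNB or JUND, taken from 250 bases before to 50 after the start. Of all protein-coding promoter windows, 11.0% were overlapped by an untreated peak and 3.13% by an etoposide peak. The 3 genes differed widely in what lay farther out. JUN had 14 untreated and 11 etoposide peaks within 200 kb, JUND had 9 and 3, and JUNB had 1 and 0.

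**Figure D1:**
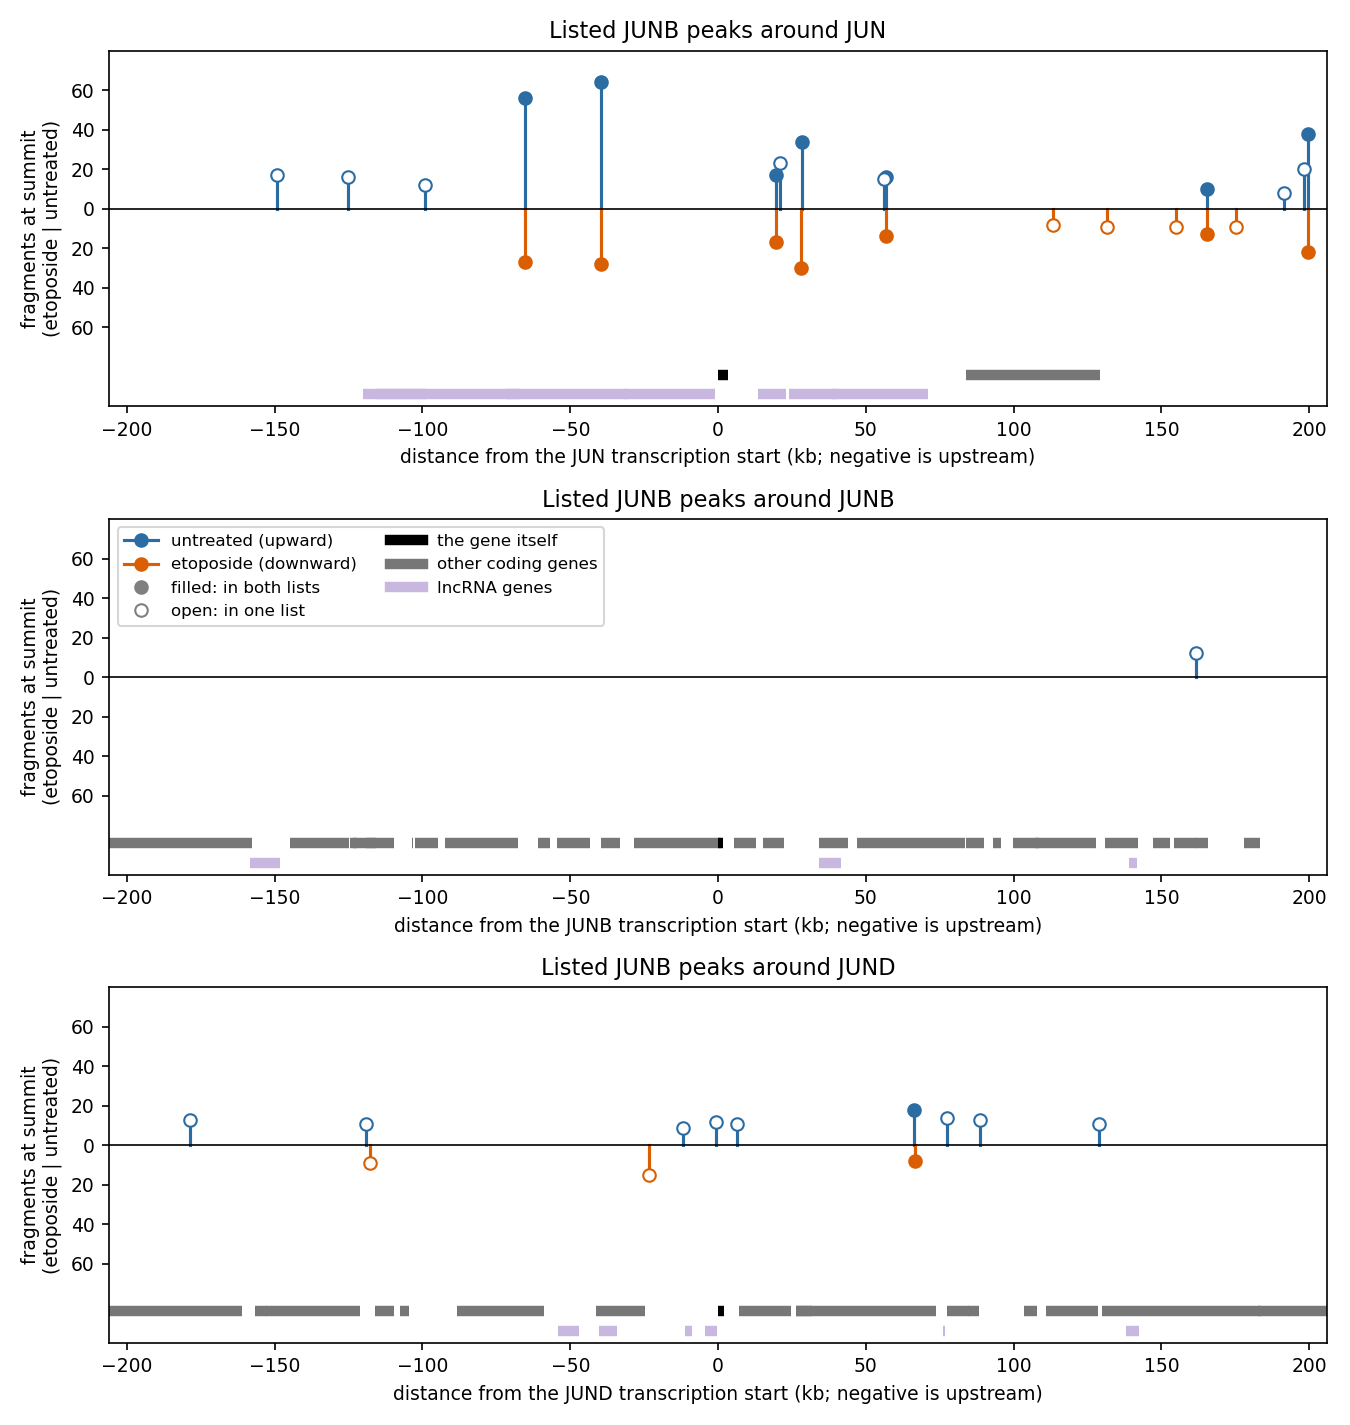
Listed JUNB peaks around the 3 genes. The horizontal axis is the distance from the gene's transcription start in kb with upstream negative, the height is the number of fragments at the summit (untreated upward, etoposide downward), filled points are peaks found in both lists, and bars at the bottom are annotated genes. JUN has 2 tall shared peaks upstream, with 64 and 56 untreated fragments, JUNB has 1 distant peak, and the peaks of JUND are low and mostly in the untreated list.

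The lists were close in depth. The number of fragments stacked at each summit, worked out from the authors' fold and p values, had a median of 15 over the untreated list (quartiles 11 and 21) and 13 over the etoposide list (10 and 17), and the etoposide library was put at 0.836 times the depth of the untreated one. Intervals below are exact 95% intervals and cover counting error only. A peak counts as shared when at least 1 bp of it is covered by the other list. Over chromosomes 1 to 22 and X this held for 51.0% of the 32550 untreated peaks and 64.8% of the 25739 etoposide peaks. Around the 3 genes, 8 of 24 untreated peaks were shared (33.3%, 15.6% to 55.3%), and 8 of 14 etoposide peaks were (57.1%, 28.9% to 82.3%). Both intervals take in the share of the whole list. The shared peaks around the 3 genes had a median of 26 fragments in untreated cells and 19.5 after etoposide, and the peaks of a single list had medians of 12.5 and 9. In the whole lists the corresponding medians were 19 and 14 for shared peaks and 12 and 10 for the rest.

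JUN lies on chromosome 1 from 58780791 to 58784047 and is read from the minus strand, so higher coordinates are upstream of it. The summits nearest to it in either list were 16.5 kb away in untreated and 16.2 kb in etoposide cells, both downstream. In the untreated list 44.8% of protein-coding genes had their nearest summit as far away or farther, so JUN had no close peak but was not unusual in that. In the number of peaks it stood high. Only 8.06% of the 19974 protein-coding genes had 14 or more untreated summits within 200 kb, and 7.50% had 11 or more etoposide summits, where the medians were 6 and 4. Among genes of chromosome 1 these shares were 8.49% and 7.47%. Long genes have wider windows under this rule, and all 3 JUN genes are short.

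**Figure D2:**
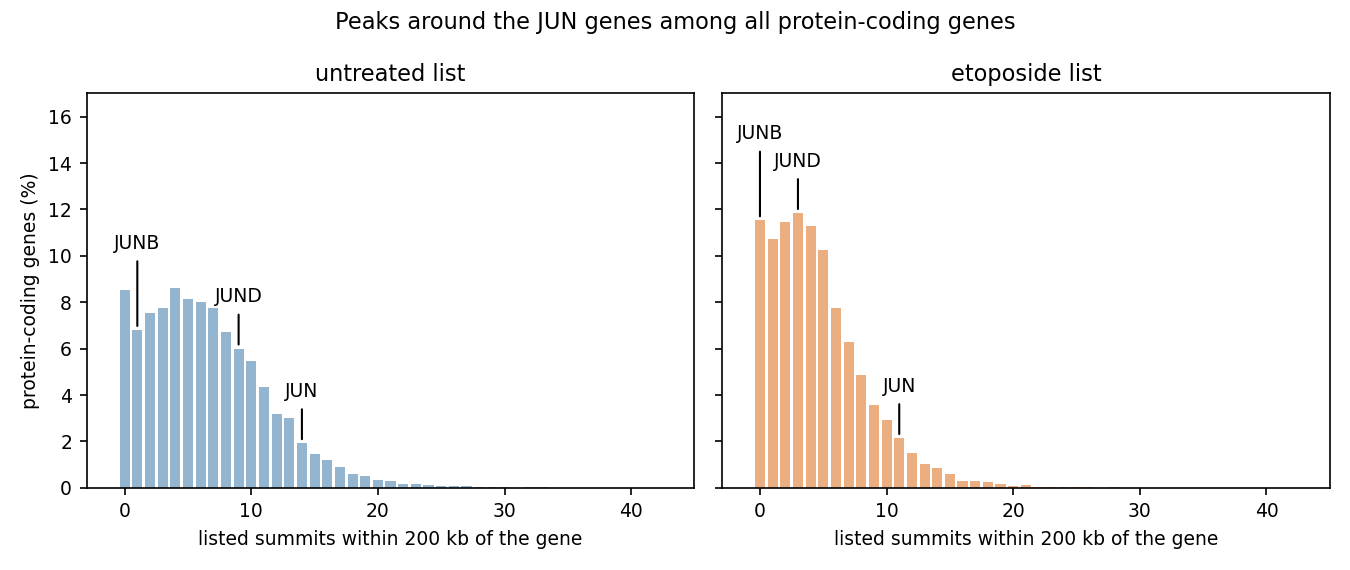
Share of protein-coding genes (vertical axis, %) by the number of listed summits within 200 kb of the gene (horizontal axis), for each list. JUN stands in the upper tail with 14 untreated and 11 etoposide summits, JUND has 9 and 3, and JUNB stands at the low end with 1 and 0.

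In the untreated list the 2 strongest peaks around the 3 genes were upstream of JUN and inside JUN-DT, the long noncoding RNA gene that starts beside JUN and runs away from it (58785151 to 58899712, plus strand). The first, 39.7 kb upstream, had 64 fragments at its summit in untreated cells (49.3 to 81.7), at 58823593 to 58823902. It ranked 41st of 32550 peaks by -log10 q, which was 65.1, with an authors' fold of 21.0. Its etoposide counterpart, at 58823385 to 58823878, had 28 fragments (18.6 to 40.5), ranked 657 of 25739, and had a -log10 q of 26.1 and an authors' fold of 14.1. The summits were 10 bp apart, so the same place was marked in both lists. By -log10 q it was the strongest peak around the 3 genes in both lists, although in etoposide cells a downstream peak had slightly more fragments.

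The second, 65.2 kb upstream, had 56 untreated fragments (42.3 to 72.7) at 58849056 to 58849583 and ranked 292. In etoposide cells the peak at 58849051 to 58849561 had 27 fragments (17.8 to 39.3) and ranked 2039, behind the peak 25.2 kb downstream of JUN at rank 1528, with the summits 16 bp apart. The sequence of these distal peaks was not used here, and the annotation at hand gives gene spans without exons.

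In the etoposide library both upstream peaks had fewer fragments than the difference in depth would give. Divided by the relative depth, the ratio of etoposide to untreated fragments was 0.523 at 39.7 kb (0.323 to 0.828) and 0.577 at 65.2 kb (0.350 to 0.929). Of all 16610 shared pairs, 3.57% had an interval wholly below 1, and 1.64% had one wholly above. Strong peaks give narrow intervals, and among the 572 shared pairs with at least 50 untreated fragments, a limit chosen after the values had been seen, 24.0% had an interval wholly below 1. The median ratio of those strong pairs was 0.777 (quartiles 0.643 and 0.919), against 0.931 over all pairs. Both JUN ratios lay below that lower quartile, but their counting intervals took in both it and the median of the strong pairs. Strong pairs were chosen by their untreated fragments, and the part of that choice in the ratios was not tested. The local background of the peak caller was lower in etoposide in all 8 shared pairs around the family, with list medians of 0.907 against 1.27 fragments. It was 1.06 against 2.10 for the nearer and 1.98 against 3.21 for the farther upstream peak, and 2.25 against 3.15 at the shared peak 25.2 kb downstream. Its part in the ratios was not tested.

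The 3 shared peaks nearest to JUN on its downstream side had similar numbers of fragments in both libraries. At 25.2 kb, within the long noncoding RNA gene LOC112268263, 34 untreated fragments (23.5 to 47.5, rank 3159) stood against 30 in etoposide (20.2 to 42.8, rank 1528), a depth-scaled ratio of 1.06 (0.624 to 1.78). This etoposide peak had the most fragments of any around the 3 genes in that list, though its summit lay 369 bp from the untreated one within a broad peak of 731 bp. At 53.4 kb, in the same noncoding gene, there were 16 and 14 fragments, a ratio of 1.05 (0.473 to 2.29), with summits 2 bp apart. At 16.5 kb, within LOC105378751, there were 17 in both, a ratio of 1.20 (0.574 to 2.49), with summits 285 bp apart. All 3 intervals took in 1 and were wide. Without depth scaling the ratios at 25.2 and 53.4 kb were 0.882 and 0.875, on the other side of 1.

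The remaining shared pairs of JUN lay near the edge of the window. At 162.1 kb downstream there were 10 untreated and 13 etoposide fragments, a ratio of 1.56 (0.630 to 3.96). At 196.2 kb downstream there were 38 and 22, a ratio of 0.693 (0.390 to 1.20). Intervals at both places took in 1. Just outside the window the next summits were 234.3 kb downstream in both lists, with 17 untreated and 10 etoposide fragments. Upstream they were at 236.5 kb in untreated and 224.4 kb in etoposide cells, with 14 and 9. The untreated peak upstream was shared and the etoposide one was not.

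**Figure D3:**
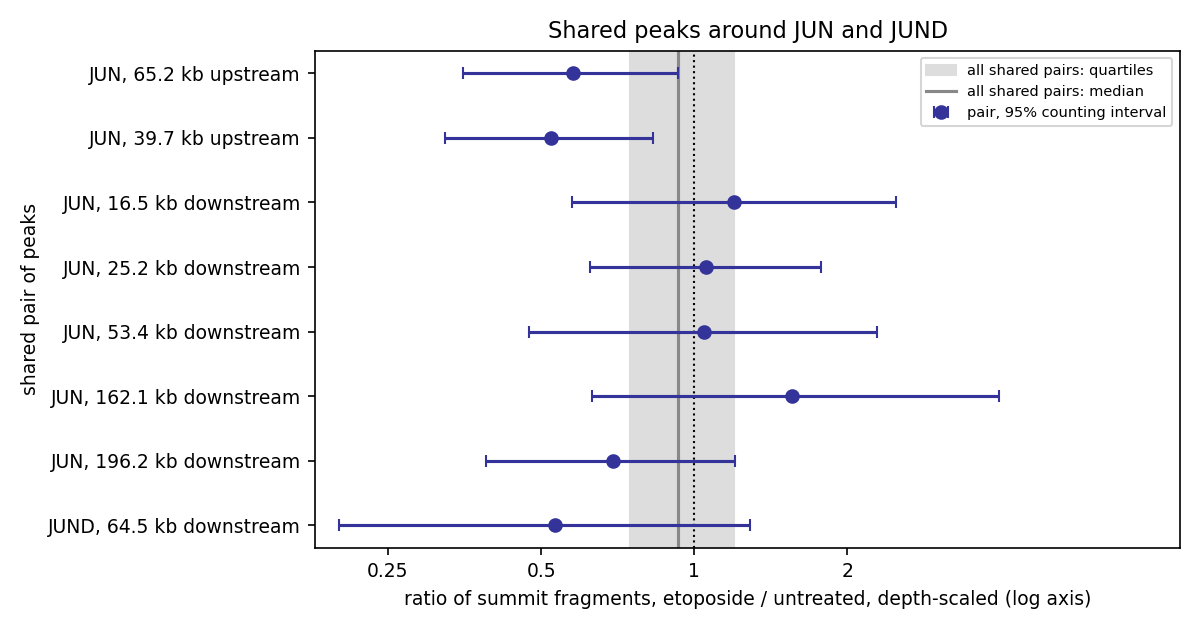
Depth-scaled ratio of summit fragments, etoposide to untreated (horizontal log axis), for the 8 shared pairs around JUN and JUND, with 95% counting intervals. The grey band and line are the quartiles and the median of all shared pairs. The intervals of the 2 upstream JUN pairs, at 0.523 and 0.577, lie below 1, and the other 6 include it.

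Peaks found in a single list around JUN were spread differently in the 2 libraries. The 7 of the untreated list had 8 to 23 fragments. The strongest by -log10 q, 149.1 kb upstream at 58932686 to 58933295, had 17 fragments and ranked 8384, and the 2 others beyond JUN-DT or near its far end had 16 (125.2 kb) and 12 (99.2 kb). The one with the most fragments, 23, lay 17.6 kb downstream at 58762983 to 58763343, about as close to JUN as the nearest shared pair. The others were beside shared peaks at 53.0 kb (15 fragments) and 194.9 kb (20), and at 188.1 kb (8). The 4 found in the etoposide list alone had 8 or 9 fragments and all lay downstream, from 110.0 to 172.1 kb. The strongest of them by -log10 q was inside MYSM1, a histone H2A deubiquitinase gene, at 58670635 to 58670823, with 8 fragments at rank 17486. Between 99.2 and 149.1 kb upstream only the untreated list had peaks, and between 110.0 and 151.5 kb downstream only the etoposide list did. These limits were set at the peaks themselves after they had been seen, so no difference between the libraries follows. No summit around JUN in either list lay within 1 kb of a protein-coding transcription start.

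JUNB lies on chromosome 19 from 12791486 to 12793315, plus strand. Its start lies inside the annotated span of HOOK2 (12763003 to 12792350), whose product links vesicles to microtubules, and the next coding gene downstream is PRDX2, the gene of a peroxide-reducing enzyme. It codes for the very protein that was profiled, yet its surroundings were nearly empty in both lists. The only peak within 200 kb was an untreated one 159.9 kb downstream, at 12953070 to 12953278, with 12 fragments (6.20 to 21.0) at rank 13809. The etoposide list had no peak in the window. Its nearest summit was 240.3 kb upstream, with 8 fragments, and that peak was shared with an untreated one of 14 fragments 240.1 kb upstream. The next untreated summit downstream, just outside the window at 220.0 kb, had 12 fragments and no counterpart, and the next etoposide one was at 323.6 kb with 10 fragments.

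The stretch without a summit around JUNB ran for 401.8 kb in the untreated list and 565.8 kb in the etoposide list, against 59.4 and 59.1 kb around JUN and 7.02 and 89.7 kb around JUND. The window held 27 other protein-coding genes, more than the 16 around JUND and the 1 around JUN, among them the erythroid factor gene KLF1 and CALR, which codes for the chaperone calreticulin. Such a lack was uncommon but not rare. Of all protein-coding genes, 15.3% had at most 1 untreated summit in the same window and 11.5% had no etoposide summit. On chromosome 19 alone the shares were 18.95% and 17.2% of 1451 genes. A nearest summit as far away or farther was found for 10.8% of genes in the untreated and 9.11% in the etoposide list. A peak list shows only places above the caller's threshold, and weaker binding near JUNB was not measured here.

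JUND lies on chromosome 19 from 18279694 to 18281622, minus strand. It had 9 untreated peaks within 200 kb, where 30.1% of protein-coding genes had as many or more (18.8% on chromosome 19), and 3 etoposide peaks, where 66.3% did (49.3% on chromosome 19). It was the only gene of the family with peaks inside 10 kb, and both were untreated. A summit that close was found for 49.6% of protein-coding genes in untreated cells and for 38.9% after etoposide.

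The peak nearest to JUND had its summit 535 bp before the transcription start, at chr19:18282114-18282325, with 12 fragments (6.20 to 21.0), rank 13021 and a -log10 q of 9.83. No etoposide counterpart was listed. The peak began beyond the 250-base promoter stretch printed above and did not reach its octamer. The summit was inside the microRNA gene MIR3188 and the long noncoding RNA gene LOC124904652. The MIR3188 hairpin (RefSeq, chr19:18282077-18282161, plus strand) is printed as the annotated sequence under the summit, with the 48 bases inside the peak in capitals. It holds none of the motifs searched above.
MIR3188: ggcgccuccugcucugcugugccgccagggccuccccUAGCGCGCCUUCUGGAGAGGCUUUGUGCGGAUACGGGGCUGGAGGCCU
The other close peak was 4.56 kb downstream, at 18274783 to 18275204, with 11 fragments at rank 27031, and lay 686 bp from the start of IQCN. The next, 11.8 kb upstream, had 9 fragments at rank 28533. In etoposide cells the summit nearest to JUND was 23.2 kb upstream, at 18304695 to 18304913, with 15 fragments (8.40 to 24.7) at rank 5825. It was the strongest etoposide peak around JUND, had no untreated counterpart, and lay 1.40 kb past the end of LSM4, a gene of the U6 RNA-binding LSM ring.

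Of the 9 untreated summits around JUND, 5 lay within 1 kb of a protein-coding transcription start, and none of the 3 etoposide summits did. The starts were those of JUND itself at 535 bp, IQCN at 686 bp, PIK3R2 at 384 bp, RAB3A at 214 bp and MPV17L2 at 175 bp. Over the lists, 8.53% of untreated and 4.00% of etoposide peaks lay that close to a start, and on gene-rich chromosome 19 the shares were 27.0% and 15.1%. All 5 were in the untreated list alone, with 11 to 14 fragments. The whole lists held 2635 untreated and 977 etoposide peaks that close to a start, so fewer etoposide peaks near starts is not particular to JUND. The shared share of peaks near starts was not counted, so how usual a lack of counterparts is there was not measured. PIK3R2 codes for a regulatory subunit of phosphoinositide 3-kinase, RAB3A for a GTPase of vesicle release, and MPV17L2 for a mitochondrial inner membrane protein.

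The peaks at MPV17L2 and RAB3A are shown because they are the only ones around the 3 genes whose summit fell inside a promoter window. The 250 bases before the start are printed on the coding strand, with the bases inside the peak in capitals, at chr19:18192968-18193217, plus strand, for MPV17L2 and at chr19:18204043-18204292, minus strand, for RAB3A.
MPV17L2: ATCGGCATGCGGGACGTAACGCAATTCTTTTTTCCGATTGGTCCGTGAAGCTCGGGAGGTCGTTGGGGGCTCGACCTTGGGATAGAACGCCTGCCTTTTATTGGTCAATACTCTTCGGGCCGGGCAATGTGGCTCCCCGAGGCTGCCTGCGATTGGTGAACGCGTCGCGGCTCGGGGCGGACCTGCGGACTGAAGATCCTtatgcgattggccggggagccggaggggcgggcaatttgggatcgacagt
RAB3A: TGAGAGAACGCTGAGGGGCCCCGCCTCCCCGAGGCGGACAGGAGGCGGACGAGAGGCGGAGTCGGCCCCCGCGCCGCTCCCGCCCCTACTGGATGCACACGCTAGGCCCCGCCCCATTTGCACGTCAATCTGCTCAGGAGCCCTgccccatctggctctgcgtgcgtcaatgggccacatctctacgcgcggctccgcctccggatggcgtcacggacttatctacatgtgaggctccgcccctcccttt
The peak covered 200 of these bases at MPV17L2, with 13 fragments at rank 14804, and 144 at RAB3A, with 14 fragments at rank 19921. Neither stretch held TGACTCA, TGACGTCA or the JUN variants on either strand.

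Only 1 place around JUND was in both lists. It lay 64.5 kb downstream within PDE4C, a phosphodiesterase gene that degrades cyclic AMP. The untreated peak, at 18215030 to 18215258, had 18 fragments (10.7 to 28.4) and ranked 5910, the highest of the 9, and the etoposide peak, at 18215043 to 18215231, had 8 (3.45 to 15.8) at rank 18957. The depth-scaled ratio was 0.532, and its interval, 0.200 to 1.29, took in 1. The shared share was 1 of 9 for untreated peaks (11.1%, 0.281% to 48.3%) and 1 of 3 for etoposide peaks (33.3%, 0.840% to 90.6%). On chromosome 19 as a whole it was 46.5% and 62.9%. The untreated interval takes in the share of chromosome 19 and falls short of the 51.0% of the whole list. It covers only the counting error of 9 neighbouring peaks of 1 library, so no difference between JUND and the list follows. The 8 untreated peaks without a counterpart were weak, with 9 to 14 fragments, and ranked in the lower 3 of 5 equal parts of the list, where 44.7%, 34.5% and 24.2% of all peaks were shared.

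**Figure D4:**
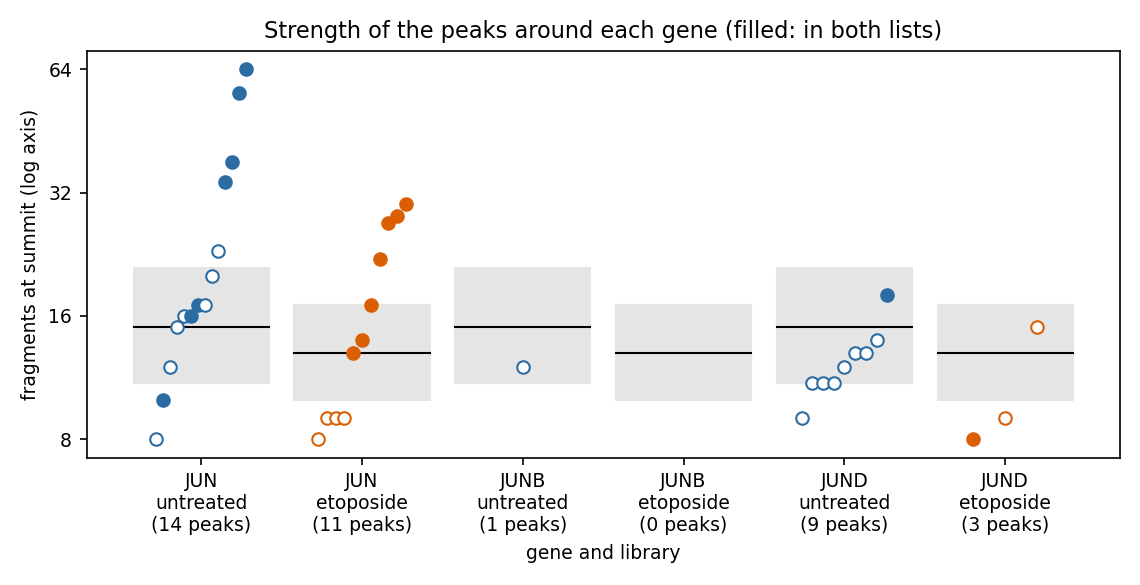
Fragments at the summit (vertical log axis) of every listed peak around each gene in each library, with filled points for shared peaks. The black line and grey box are the median and quartiles of the whole list, 15 (11 to 21) for untreated and 13 (10 to 17) for etoposide. JUN alone has peaks well above the box, and those of JUND and JUNB lie inside it or below it.

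Farther from JUND the untreated list had peaks of 11 fragments 119.1 kb upstream and 13 fragments 178.5 kb upstream, the latter inside ELL, a gene of a transcription elongation factor. The etoposide list had a peak of 9 fragments 117.8 kb upstream, 1.82 kb from LRRC25. GDF15, a stress-induced cytokine gene, lay in the same window and held no summit of either list. Just outside the window were summits at 238.8 kb upstream with 27 untreated fragments, and at 233.6 kb upstream and 233.4 kb downstream with 11 and 7 etoposide fragments. That untreated peak was shared, and the etoposide ones had no counterpart. The next untreated summit downstream was 771.4 kb away.

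The partners and regulators of the JUN proteins give the wider picture. Of 17 genes for AP-1 partners, 11 had an untreated and 6 an etoposide summit within 10 kb, beside the 49.6% and 38.9% of all protein-coding genes. Each list had a summit within 10 kb of FOSB, ATF3, ATF7, JDP2 and MAFK. Such summits need not belong to overlapping peaks, here or for the genes below. FOSL1, ATF2, BATF2, BATF3, MAFF and MAFG had one in the untreated list alone and FOSL2 in the etoposide list alone. FOS, like JUN, had no summit within 10 kb in either list and had 7 untreated and 6 etoposide summits within 200 kb, the nearest 11.8 and 11.7 kb away. Of 12 genes whose products act on JUN proteins, 9 had an untreated and 9 an etoposide summit, beside the same 49.6% and 38.9%. A summit inside the span counts here, so long genes have more room for one. The shares of all genes were not matched for gene length, and no enrichment of either set can be read from these numbers. They included MAPK8, the gene of JNK1, and its activating kinase MAP2K4 in both lists, and MEN1, the gene of the JUND partner menin, and the ubiquitin ligase gene ITCH in the untreated list alone. MAPK9, the gene of JNK2, had one in the etoposide list alone.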

How the data were processed

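JUNB CUT&RUN peaks were listed for 1 untreated and 1 etoposide library of IMR-90 cells, grouped by the treatment label. Bowtie2, MACS2 and the builds hg38 and mm10 are named in the submitters' processing notes, without versions or roles. Settings and any control library are not given in the sources used here. The lists hold peaks on chromosomes 20 to 22, which mouse lacks (1594 and 1167), and on GRCh38 contigs, so coordinates are given on GRCh38, counted from 1. The deposited fold is the ratio of summit signal to local background. The deposited -log10 p and -log10 q are those of the authors' caller, the deposited score restates -log10 q, and column 10, as deposited, places the summit. All were used within a list only.

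Fragments at the summit were worked out with Python 3.11.15 and scipy 1.17.1 as the whole number k for which the fold equals (k + 1)/(b + 1), at local background b, and -log10 p the Poisson tail above k. This fitted 100% of peaks of both lists within 0.001, and 99.9% of 1847 pileups simulated for the untreated list were returned exactly. Depth of one library relative to the other came from the lowest backgrounds (0.377 and 0.482), as a ratio divided by that of the smallest widths (189 and 202 bp). Both are assumptions about the caller.

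Gene spans, promoters and the miRNA came from RefSeq (GRCh38.p14). The promoter table held 15812 of 19259 protein-coding genes outside chromosome 8, some with several starts, and peaks of chromosome 8 were left out of shares near starts. Every peak within 10 kb of a member was named, then the nearest, the strongest shared and the strongest single-list peaks. Other peaks that are named illustrate the ranges and were chosen after their values were seen. Members, lists and windows were chosen with earlier results of these data known. Alternatives tried were other distances, stricter lists, other definitions of a shared peak and other depth scalings.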

Additional observations from a re-analysis of the deposited data

How the results depend on the processing

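With 1 library of each condition, no value here has a replicate check, and no replicate could be left out. No paired analysis was possible because each condition has a single library. Peak lists give no reads, so binding under the threshold was not measured, and counting intervals are wide at 8 to 64 fragments. Narrower windows lowered the numbers of peaks by construction. Within 100 kb JUN had 8 untreated and 5 etoposide peaks and JUNB had 0 untreated. Within 50 kb JUN had 4 and 3, JUND had 3 and 1, and JUNB had 0 untreated. Among the 10000 strongest peaks of each list JUN had 5 in each, JUND had 1 in each, and JUNB had 0 untreated. The higher untreated numbers at JUN and JUND were not seen there, but equal numbers of peaks were taken from lists of unequal length. These were not all the same places. For JUND it was the peak within PDE4C in untreated cells and the peak 23.2 kb upstream in etoposide cells. The shared share of etoposide peaks rose within 100 kb, to 100% (5 peaks) around JUN and 85.7% around the 3 genes. Partner and regulator genes with a summit rose within 50 kb from 20 to 27 in the untreated list and from 15 to 25 in the etoposide list. Wider windows raise such numbers by construction, and the share of all genes within 50 kb was not counted. In 70 of 86 comparisons of a value with an alternative the value stayed within its counting interval or, for numbers, within 1.5 times. Some of these had little room to move. Each other depth scaling changed all ratios by the same factor, which was small beside their counting intervals, so no ratio could leave its interval. The etoposide number at JUNB was 0 and could not fall, and the untreated shared share at JUNB rested on 1 peak (0% to 97.5%). Without depth scaling the ratios at the upstream JUN peaks were 0.438 and 0.482, but leaving it out could only lower them. Scaled by the median of all pairs they were 0.562 and 0.620, and no intervals were worked out for that scaling.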
